A study of Mus musculus with 6 samples.

Results

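Polyamine metabolism was examined through 10 genes: Odc1, Amd1, Amd2, Srm and Sms, which encode enzymes of synthesis, Smox and Sat1, which encode enzymes of interconversion and breakdown, and Oaz1, Oaz2 and Azin1, which encode regulators of ornithine decarboxylase. They were taken by symbol from the deposited table, and 10 of 10 were present among the 13226 genes measured. RNA was sequenced from whole tibialis anterior (TA) muscles of male C57BL/6 mice injected at 8 weeks of age and collected 7 days later. One leg received AAV6:Yap-shRNA, an adeno-associated viral vector that carries a short hairpin RNA against the transcriptional co-activator Yap, and the opposite leg received a control vector, giving 3 control and 3 Yap-shRNA libraries. The labels disagree on the control, which is an empty vector by title and AAV6:LacZ-shRNA by vector field, and it is named control throughout. The vector backbones carried a CMV promoter, which is not restricted to muscle fibres, and the shRNA backbone also encoded eGFP. Cells that took up the vector were not separated from the rest of the muscle. Control and treated muscles came from the same 3 animals, but the labels do not state that the number in a title marks an animal.

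Putrescine, spermidine and spermine are small cations that bind RNA and other polyanions in every cell. Ornithine decarboxylase makes putrescine from ornithine, S-adenosylmethionine decarboxylase provides the aminopropyl donor, and spermidine synthase and spermine synthase add aminopropyl groups in turn. Antizymes, whose own translation needs a polyamine-stimulated ribosomal frameshift, direct ornithine decarboxylase to the proteasome, and antizyme inhibitors bind antizymes in its place. In skeletal muscle, Smox is known to be abundant in healthy fibres.

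Sequences of several members bear on how their counts can be read, because short reads cannot be assigned where transcripts are the same. All sequences here were read from GENCODE M21 transcripts on GRCm38, except the promoter windows, which came from RefSeq on GRCm38.p6. Amd1 (chr10:40287458-40302186, minus strand) has 8 exons in its principal transcript, and Amd2 (chr10:35708675-35711892, minus strand) is annotated as a protein-coding gene with 1 exon. Their coding sequences of 1002 nucleotides were identical at 1001 positions. The single difference was G796C, counted from the first base of the start codon with the Amd1 base first, in codon 266. The stretches around it are shown because this is the only coding position that tells the genes apart, and the capital marks it.
Amd1: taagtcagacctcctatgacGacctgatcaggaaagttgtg
Amd2: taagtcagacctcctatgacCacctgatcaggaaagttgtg

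The antizyme frameshift site is shown next, because Oaz1 shares it with a pseudogene to which reads were counted. Oaz1 (chr10:80826656-80829290, plus strand, 6 exons) and Oaz1-ps (chr17:17345456-17346140, minus strand, a processed pseudogene of 685 nucleotides) were the same over the 43 bases shown, and Oaz2 (chr9:65668001-65690300, plus strand, 6 exons) differed from them outside the centre. The capitals mark the slippery stretch TCCTGAT, which holds the stop codon of the first reading frame.
Oaz1: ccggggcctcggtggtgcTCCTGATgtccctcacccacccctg
Oaz1-ps: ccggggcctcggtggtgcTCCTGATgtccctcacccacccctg
Oaz2: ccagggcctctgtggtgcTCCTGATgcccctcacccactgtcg
The principal GENCODE transcripts of Oaz1 and Oaz2 each leave out 1 genomic base at this site, at chr10:80828295 and chr9:65686272 respectively, so that the annotated frame reads through. The 6 exons given for each gene count the stretches on either side of this base as separate exons. Over 684 aligned bases, Oaz1 and Oaz1-ps were identical at 683, and the pseudogene held 1 further base at that gap.

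How much of each member is shared was measured as the share of stretches of a given length in its principal transcript that also occur in a transcript of another gene. For stretches of 50 nucleotides this share was 87.6% in Amd1, 85.7% in Amd2 and 53.9% in Oaz1. Oaz1-ps reached 92.1%. Odc1 followed with 42.2%, spread over 16 other genes, and Sms with 28.7%. The share was 12.0% in Oaz2, 7.28% in Sat1, 6.43% in Azin1 and 2.41% in Srm, and no stretch of Smox was found elsewhere. With stretches of 100 nucleotides Odc1 dropped to 19.6%, while Amd1 and Amd2 stayed at 76.4% and 72.9%. The Azin1 stretches lie in the antisense gene Gm49077, which overlaps 358 nucleotides of its exons on the other strand, and the sources used here give no strand setting for the counting. Counts of Amd1, Amd2, Oaz1, Oaz1-ps, Odc1 and Sms are therefore uncertain in how reads were divided, whereas those of Smox and Srm are least affected.

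**Figure D1:**
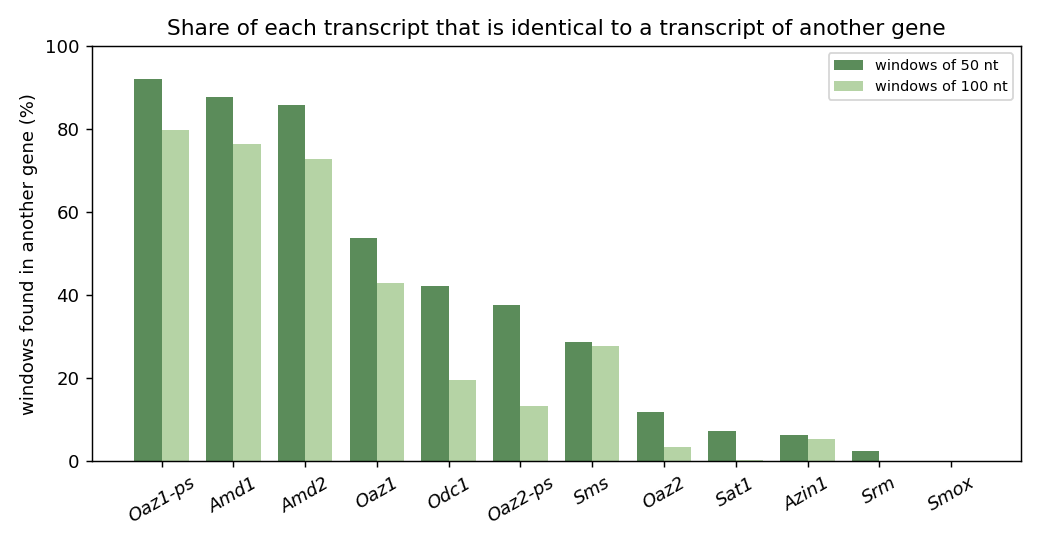
Bars give the percentage of stretches of 50 nucleotides (dark) or 100 nucleotides (light) in each principal transcript that also occur in a transcript of another gene. Amd1 and Amd2 stand at 87.6% and 85.7% with 50 nucleotides, and Smox is at 0 with both lengths.

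The libraries held 11987167 to 12710393 counts, of which the 10 members together took 0.0860 to 0.101%. Marker sums, in CPM (counts scaled to a common library size with the trimmed mean of M-values, TMM), were 116950 to 141200 for 6 of 6 muscle fibre genes. Control 1 and Yap-shRNA 3 stood apart, with sums over 4 of 4 tendon markers of 338 and 309 CPM against 38.1 to 58.4 CPM in the other libraries, and over 5 of 5 fibroblast markers of 1957 and 2227 CPM against 1002 to 1186 CPM. No tendon marker was at 0 in any library. Yap1, the targeted gene (chr9:7931999-8004596), had 71.2, 65.3 and 68.4 CPM in control 1 to 3 and 32.0, 23.9 and 39.5 CPM in Yap-shRNA 1 to 3. The groups did not overlap, and the Yap-shRNA mean was 46.5% of control. The log2 fold change was -1.10 (SE 0.16); the adjusted p was 5.85e-07 in DESeq2 but 0.436 in the quasi-likelihood test of edgeR, the main test here.

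The comparison asked whether levels of polyamine genes differed between muscles given Yap-shRNA and control muscles at 7 days. None of the 10 members passed an adjusted p of 0.05 in edgeR's quasi-likelihood test, and none had an unadjusted p under 0.05. Over all genes tested, 0% passed the adjusted threshold and 1.75% had an unadjusted p under 0.05. DESeq2 called 0.0378% of genes, and neither DESeq2, the edgeR likelihood ratio test nor limma-voom called a member. The groups overlapped in 10 of 10 members, where 2.56% of all genes were higher in every Yap-shRNA library and 2.71% lower in every one. The estimate was above 0 for 4 members and below 0 for 6, with a median log2 fold change of -0.024. Below 0 were 51.1% of all genes, whose median was -0.0029. The members' estimates ran from -0.43 for Amd2 to 0.15 for Srm, and the adjusted p was 1.00 for each (edgeR quasi-likelihood). In RNA of a whole muscle, fewer cells of a type and less RNA per cell cannot be told apart.

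**Figure D2:**
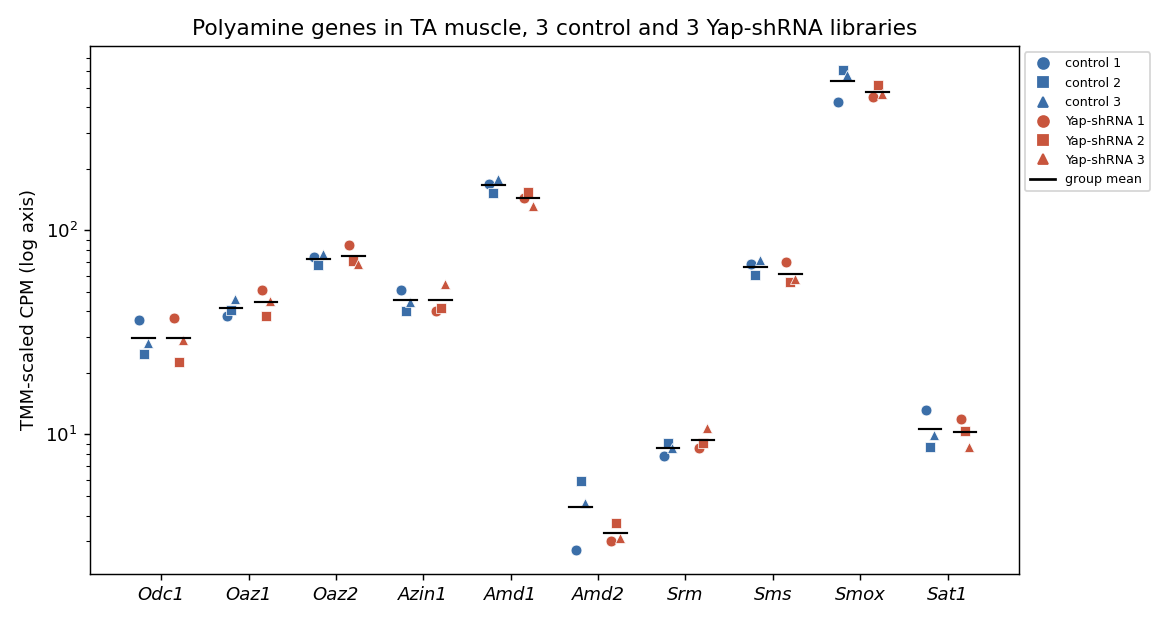
Each point is the TMM-scaled CPM of 1 library on a log axis for each of the 10 genes, with controls in blue, Yap-shRNA libraries in red, the number of the library as the marker shape, and bars for group means. The groups overlap for every gene, from Smox at 423 to 609.7 CPM down to Amd2 at 2.72 to 5.94 CPM.

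Odc1 (chr12:17544794-17551505, plus strand, 12 exons) encodes ornithine decarboxylase, the entry enzyme of the pathway. It had 36.2, 24.8 and 28.0 CPM in control 1 to 3 and 37.0, 22.6 and 29.0 CPM in Yap-shRNA 1 to 3. The group means were 29.7 ± 5.87 and 29.5 ± 7.22 CPM (SD, n = 3 each), and the log2 fold change was -0.0093 (95% interval -0.44 to 0.43). The highest and the lowest library both belonged to the Yap-shRNA group, and the spread within each group far exceeded the difference between the means. Its sign turned when control 1, Yap-shRNA 2 or Yap-shRNA 3 was left out, giving 0.16, 0.15 and 0.0024 in turn.

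Amd1, which encodes S-adenosylmethionine decarboxylase, came nearest to the threshold of all members. It had 168, 153 and 179 CPM in control 1 to 3 and 144, 153 and 131 CPM in Yap-shRNA 1 to 3. Both Yap-shRNA 1 and Yap-shRNA 3 lay below the lowest control, while Yap-shRNA 2 and control 2 were nearly level. The Yap-shRNA mean of 143.0 ± 11.1 CPM was 85.9% of the control mean of 166.6 ± 13.1 CPM (SD, n = 3 each). The log2 fold change of -0.22 (SE 0.10; 95% interval -0.45 to 0.011) had an unadjusted p of 0.0597 in edgeR's quasi-likelihood test. An exact two-sided permutation test of the CPM gave p = 0.2, where 3 against 3 libraries cannot go below 0.1.

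Amd2, the single-exon gene with nearly the same coding sequence, had only 35, 71 and 56 counts in the controls and 36, 48 and 39 counts in the Yap-shRNA libraries. Control 1 was the lowest library and control 2 the highest, so that the controls enclosed the whole Yap-shRNA group. The log2 fold change was -0.43 (95% interval -1.06 to 0.21), which is the widest interval among the members. Because the genes share most of their sequence, their counts were also summed, and the sum had a log2 fold change of -0.23 (95% interval -0.45 to 0.0027, unadjusted p = 0.0523 in edgeR's quasi-likelihood test, adjusted p = 1.00). Amd2 counts were 0.0162 to 0.0388 of the Amd1 counts in a library, with both extremes in controls.

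Srm (chr4:148591503-148594993, plus strand, 7 exons) encodes spermidine synthase. It had 7.86, 9.11 and 8.62 CPM in control 1 to 3 and 8.56, 9.06 and 10.7 CPM in Yap-shRNA 1 to 3. Only Yap-shRNA 3 exceeded the highest control. The log2 fold change was 0.15 (SE 0.15; 95% interval -0.20 to 0.49), and without Yap-shRNA 3 it was 0.047. Yap-shRNA 3 also carried the tendon and fibroblast signal given above and an adipocyte marker sum over 4 of 4 genes of 82.0 CPM, against 11.9 to 23.3 CPM in the other libraries. The part of these in the Srm value was not tested.

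Sms (chrX:157443855-157492287, minus strand, 11 exons) encodes spermine synthase. It had 68.0, 60.03 and 71.1 CPM in control 1 to 3 and 69.9, 55.7 and 57.6 CPM in Yap-shRNA 1 to 3. Yap-shRNA 2 and Yap-shRNA 3 lay below every control, while Yap-shRNA 1 was the second highest library. This gave a log2 fold change of -0.12 (SE 0.12; 95% interval -0.39 to 0.14), which was -0.23 without Yap-shRNA 1 and -0.060 without Yap-shRNA 2. Within a library the Srm count was 0.116 to 0.152 of the Sms count in controls and 0.122 to 0.186 in Yap-shRNA libraries, with means of 0.129 and 0.157. This ratio had the smallest p of the 9 ratios compared (exact two-sided permutation p = 0.2, adjusted over 9 ratios 1), and its groups overlapped, as did those of the other 8.

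Smox (chr2:131491496-131525922, plus strand, 7 exons) encodes spermine oxidase, which turns spermine back into spermidine. It made up 48.0 to 59.8% of all counts of the 10 members. It had 423, 609.7 and 573 CPM in control 1 to 3 and 449, 512 and 464 CPM in Yap-shRNA 1 to 3. Control 2 and control 3 lay above every Yap-shRNA library, and control 1 lay below every one. The means were 535.4 ± 98.7 and 474.7 ± 32.8 CPM (SD, n = 3 each), and the log2 fold change was -0.17 (SE 0.14; 95% interval -0.49 to 0.14). Smox and Amd2 placed the 6 libraries in the same order, from control 2 at the top to control 1 at the bottom.

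The estimates for Smox and Amd2 depended on which control was counted. Without control 1 the log2 fold change was -0.32 for Smox (unadjusted p = 0.0083 in edgeR's quasi-likelihood test, adjusted p = 0.589) and -0.68 for Amd2 (unadjusted p = 0.0125, adjusted p = 0.631). In that fit 957 of 13226 genes had an unadjusted p under 0.05, against 232 with all libraries. Without control 2 the estimates were -0.070 and -0.16. Without both tendon-high libraries, control 1 and Yap-shRNA 3, they were -0.30 and -0.65, each with an adjusted p of 0.875 in edgeR's quasi-likelihood test.

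Sat1 (chrX:155213132-155216449, minus strand, 6 exons) encodes spermidine/spermine N1-acetyltransferase, which marks polyamines for export or oxidation. It had 13.2, 8.70 and 9.93 CPM in control 1 to 3 and 11.9, 10.4 and 8.69 CPM in Yap-shRNA 1 to 3. Control 1 was the highest library, and Yap-shRNA 3 the lowest by a small margin below control 2. The log2 fold change was -0.039 (95% interval -0.47 to 0.39), and it turned to 0.15 without control 1, 0.070 without Yap-shRNA 3 and 0.26 without both.

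The antizyme genes had estimates slightly above 0. Oaz1 had 37.98, 40.6 and 45.9 CPM in control 1 to 3 and 50.8, 38.2 and 44.9 CPM in Yap-shRNA 1 to 3, a log2 fold change of 0.10 (95% interval -0.18 to 0.39). Oaz2 had 74.3, 67.2 and 76.5 CPM in control 1 to 3 and 84.2, 70.9 and 68.3 CPM in Yap-shRNA 1 to 3, a log2 fold change of 0.035 (95% interval -0.21 to 0.28). In both genes Yap-shRNA 1 was the highest library, and the other Yap-shRNA libraries lay within the range of the controls. Without Yap-shRNA 1 the estimates were 0.0032 for Oaz1 and -0.062 for Oaz2. Without Yap-shRNA 2 the Oaz1 estimate was 0.21. The pseudogene Oaz1-ps had 1319 to 1720 counts per library, against 485 to 605 for Oaz1, and its log2 fold change was 0.076. Summed with Oaz1 it gave 0.084 (95% interval -0.21 to 0.37), and Oaz2 summed with its pseudogene Oaz2-ps gave 0.031.

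Azin1 (chr15:38487427-38519266, minus strand, 12 exons) encodes antizyme inhibitor 1, a relative of ornithine decarboxylase without its activity. Its coding sequence was identical to that of Odc1 at 64.2% of aligned bases, close to the 68.0% between Oaz1 and Oaz2 and the 62.9% between Srm and Sms. It had 51.2, 40.0 and 44.6 CPM in control 1 to 3 and 40.0, 41.6 and 54.5 CPM in Yap-shRNA 1 to 3. Its log2 fold change was 0.0018 (95% interval -0.32 to 0.32). The highest libraries of the respective groups, control 1 and Yap-shRNA 3, were the tendon-high ones, whose part in the Azin1 level was not tested. Odc1 counts were 0.610 to 0.953 of the Oaz1 counts in controls and 0.592 to 0.729 in Yap-shRNA libraries (exact two-sided permutation p = 0.8, adjusted over 9 ratios 1).

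**Figure D3:**
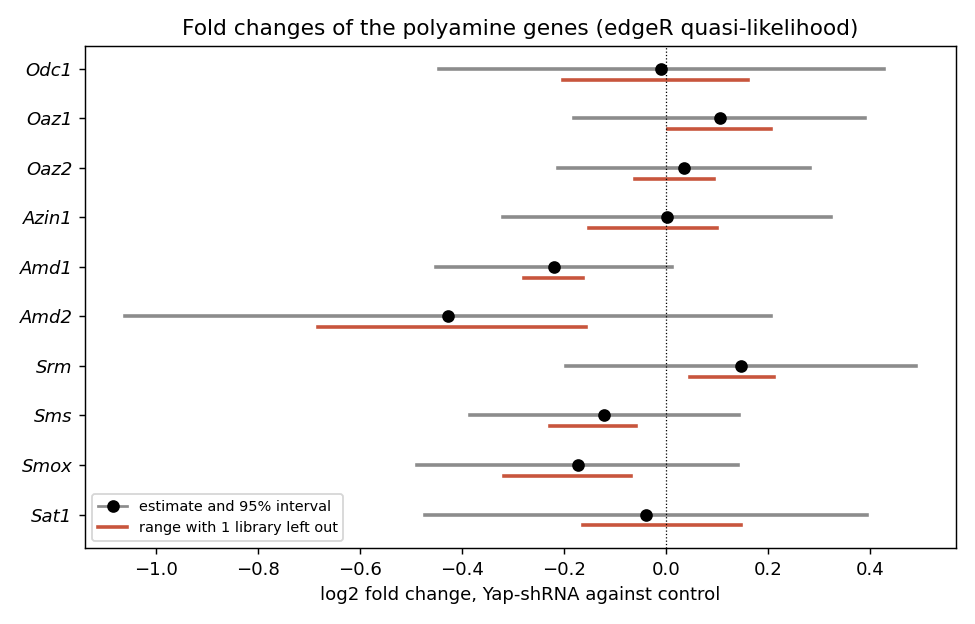
Black points are log2 fold changes of Yap-shRNA against control from edgeR's quasi-likelihood fit, grey lines their 95% intervals, and red lines the range of estimates when any 1 of the 6 libraries is left out. Every grey line spans 0, and the red lines of Amd1, Amd2, Smox and Sms stay below 0 while those of Srm and Oaz1 stay above it.

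The intervals set how large a difference these libraries leave room for. For Amd1, the interval reaches a log2 fold change of -0.45 on the low side and 0.011 on the high side. For Oaz2 and Sms the intervals lie between -0.39 and 0.28, whereas for Odc1, Sat1 and Srm they extend to between 0.39 and 0.49 on the high side. Amd2 remains the least determined member, with at most 71 counts in a library.

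Levels were compared between genes per kilobase of exon, using the union of annotated exons, over all 6 libraries. Smox had the highest level of the members at a mean of 130 CPM per kb (129.7), above 98.1% of genes with a length. Amd1 followed with 43.7 CPM per kb, Oaz2 with 24.6, Oaz1 with 16.8 and Sms with 10.6. Libraries of neighbouring genes did not overlap down to this point. Odc1 at 8.69, Azin1 at 7.25 and Srm at 5.62 CPM per kb overlapped with their neighbours in the order, and so did Sms with Odc1. Sat1 at 3.77 and Amd2 at 1.19 CPM per kb closed the order, with no library of Srm as low as the highest of Sat1 and none of Sat1 as low as the highest of Amd2. Amd2 stood above 28.6% of genes. The place of 4 members changed when the longest transcript was used as the length and of 4 when the coding length was used. Smox, Amd1 and Oaz2 kept the top places under these lengths, and Amd2 the last. Reads counted to Oaz1-ps (1319 to 1720 per library, against 485 to 605 for Oaz1) are left out of the Oaz1 level. Summed with Oaz1, they gave means of 160.8 CPM in controls and 170.4 CPM in Yap-shRNA libraries, where the exons of Oaz1 cover 2558 nucleotides. Amd1 had 166.6 and 143.0 CPM over 3542 nucleotides. With these reads added, Oaz1 would therefore stand above Amd1 and Oaz2 per length and below Smox. The places of Amd1, Oaz2 and Oaz1 thus depend on how reads were divided between Oaz1 and its pseudogene. The genes for breakdown held both a top place, with Smox, and a low one, with Sat1.

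**Figure D4:**
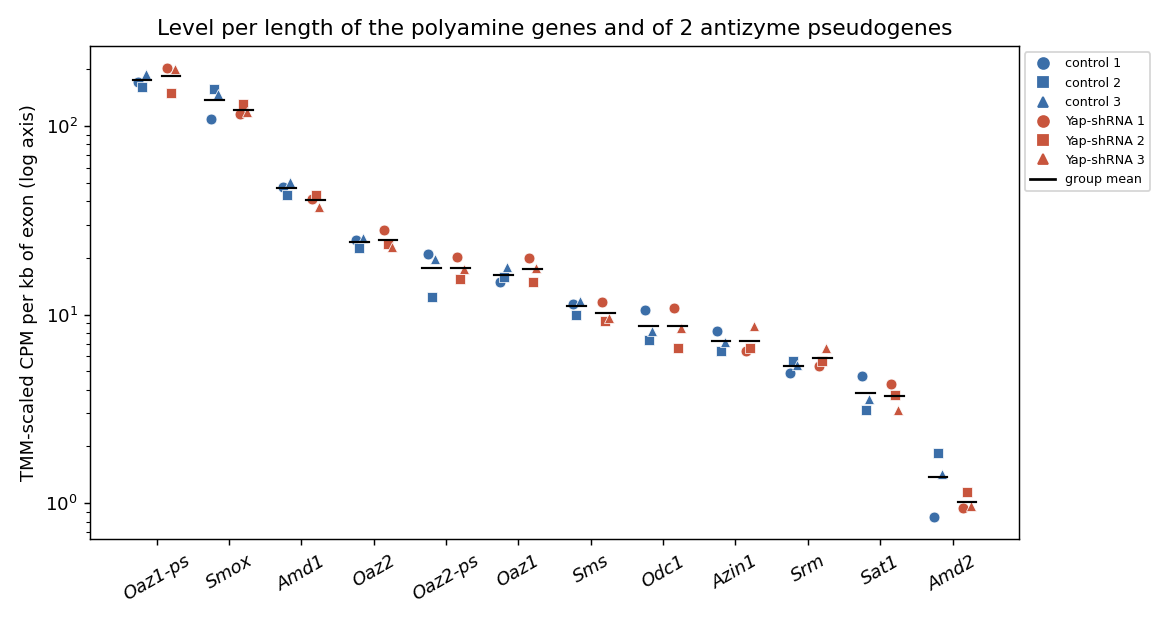
Points give the TMM-scaled CPM per kilobase of exon in each library on a log axis, for the 10 members and the antizyme pseudogenes Oaz1-ps and Oaz2-ps, with bars for group means. Oaz1-ps, at a mean of 179 CPM per kb over a transcript of 685 nucleotides, stands above Smox at 129.7 with this length, but below it with the longest transcript as the length, where Smox is at 219.7, and both groups lie together for every gene.

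Promoter windows from 250 bases before to 50 bases after the start site were found for 8 members. They were searched on both strands for CACGTG, the E-box bound by Myc and its partners, and for GGAATG, the core bound by Tead factors, through which Yap acts on DNA. GGAATG was found at 2 places in Amd2, starting at -161 and -132 from the start site, and in no other member searched. Of 32851 mouse promoters, 14.7% hold it. CACGTG was found once, in Sms at -196, while 7.15% of promoters hold it. It lay in the Sms window at chrX:157492238-157492537, and the further Sms window at chrX:157491319-157491618 held neither motif. Sequence outside these windows was not searched. These 3 stretches of 30 bases are shown because they are the only matches in the windows searched. The match is in capitals, and each is read along the gene's strand, on which the first Amd2 match appears as its reverse complement.
Amd2, chr10:35712035-35712064, minus strand: tcagtgaagttgCATTCCtgcttgtcaact
Amd2, chr10:35712006-35712035, minus strand: ttgaccatacctGGAATGaactataatcca
Sms, chrX:157492466-157492495, minus strand: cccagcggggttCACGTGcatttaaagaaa
The Amd2 window had 40.7% G and C against 63.0% in that of Amd1. A match of letters is a description and no evidence of binding.

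Of 53 genes listed around the pathway, 43 were measured and none passed the adjusted threshold in edgeR's quasi-likelihood test. An unadjusted p under 0.05 was found for Arg1, Ahcy, Gnmt and Mat1a, all with a lower mean in Yap-shRNA muscle, that is for 4 of 43 against the 1.75% of all genes given above. The groups did not overlap for 1 gene on the higher side (Mri1) and for 3 on the lower side (Arg1, Ahcy and Sat2), where 2.56% and 2.71% of all genes separated in these directions. The separation of Arg1 rested on 10 counts in both control 2 and Yap-shRNA 2, which differed only after scaling. Estimates were above 0 for 19 and below 0 for 24, with a median log2 fold change of -0.0073.

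In the supply of arginine and ornithine, 10 of 12 listed genes were measured, 5 above and 5 below 0. Arg1, which splits arginine into ornithine and urea, had 13, 10 and 58 counts in control 1 to 3 and 3, 10 and 1 counts in Yap-shRNA 1 to 3, a log2 fold change of -2.53 (SE 0.84, unadjusted p = 0.0145 in edgeR's quasi-likelihood test). Control 3 was the highest library, without which the estimate was -1.29. Oat, which converts ornithine towards glutamate and proline, was abundant and had a log2 fold change of -0.072 (95% interval -0.27 to 0.12). Azin2, a second antizyme inhibitor, had 20 to 40 counts per library and an estimate of -0.0046. Slc3a2, the heavy chain of amino acid transporters, had 0.17 (95% interval -0.058 to 0.40).

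In the methionine cycle, which makes S-adenosylmethionine, 9 of 11 genes were measured, 3 above and 6 below 0. Ahcy, the hydrolase of S-adenosylhomocysteine, had 60, 60 and 69 counts in the controls and 46, 45 and 43 counts in the Yap-shRNA libraries. The groups did not overlap, and the log2 fold change was -0.51 (SE 0.18, unadjusted p = 0.0170, adjusted p = 1.00 in edgeR's quasi-likelihood test), or -0.43 without control 3. Gnmt, a glycine methyltransferase, had 10, 35 and 147 counts in the controls and 17, 18 and 14 counts in the Yap-shRNA libraries, a log2 fold change of -1.99 that became -0.49 without control 3. Mat1a, the liver form of S-adenosylmethionine synthetase, was picked after its values were seen and had 0, 19 and 135 counts in the controls and 6, 10 and 0 counts in the Yap-shRNA libraries. Mat2a, the form used in most other tissues, had a log2 fold change of -0.18 (95% interval -0.40 to 0.053), or -0.10 without control 1.

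Liver markers were also highest in control 3. The sum over 5 of 5 liver markers was 0.623, 38.8 and 348 CPM in control 1 to 3 and 10.7, 30.9 and 0.319 CPM in Yap-shRNA 1 to 3, and Arg1, Gnmt and Mat1a had their highest counts in that library too. Outside control 3, Arg1 had 1.01 CPM in control 1, where the liver sum was low, and 0.836 CPM in control 2. Its values in Yap-shRNA 1 to 3 were 0.252, 0.768 and 0.0797 CPM. Ahcy was also highest in control 3 and lowest in Yap-shRNA 3, at 5.66 and 3.43 CPM. It had 4.67 CPM in control 1, where the liver sum was low, and 3.46 CPM in Yap-shRNA 2, where that sum was higher. Alb, which encodes albumin, had 2909 counts in control 3 and was above 0 in every library. Apoa1 and Fgb were at 0 in control 1 and Yap-shRNA 3, and Ttr was at 0 in Yap-shRNA 3. Serpina1a was at 0 in control 1, Yap-shRNA 1 and Yap-shRNA 3. The part of the liver signal in Arg1, Gnmt, Mat1a and Ahcy was not tested. Among the members, control 3 was the highest library for Amd1 and Sms, at 179 and 71.1 CPM, and without it the Amd1 estimate was -0.17.

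**Figure D5:**
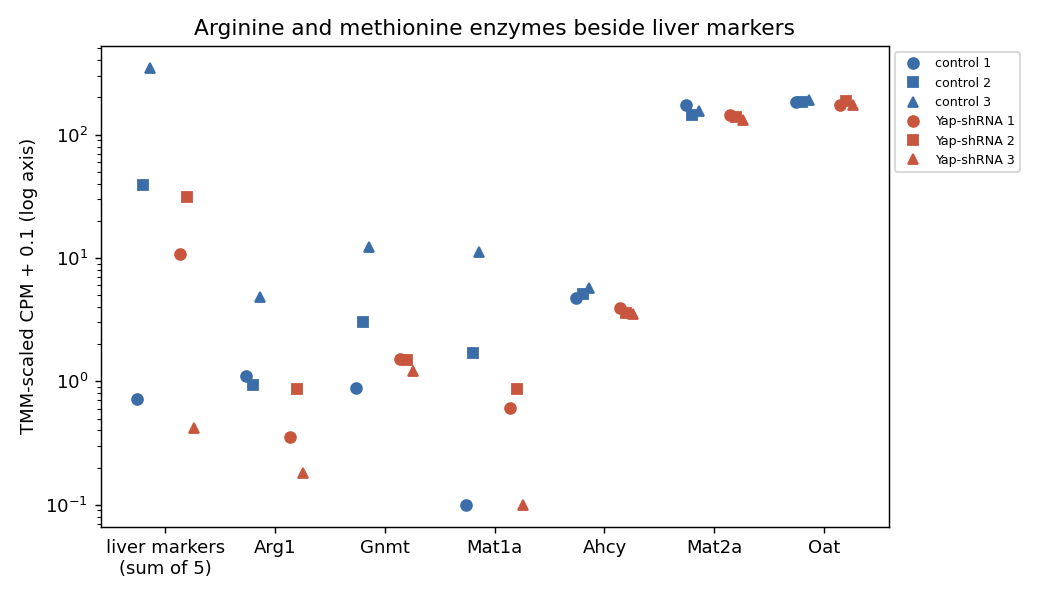
Points give TMM-scaled CPM plus 0.1 on a log axis in each library for the sum of 5 liver markers and for enzymes of arginine, ornithine and methionine metabolism. Control 3 (blue triangle) is the highest library for the liver markers, at 348 CPM, and stands well above the others for Arg1, Gnmt and Mat1a, while for Ahcy (5.66 CPM) and Oat (191 CPM) it is the highest by a small margin and for Mat2a control 1 is the highest.

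In methionine salvage, which recycles the by-product of both synthase reactions, 6 of 7 genes were measured, 2 above and 4 below 0. Mri1 had 247, 230 and 245 counts in the controls and 274, 263 and 264 counts in the Yap-shRNA libraries, with groups that did not overlap in CPM and a log2 fold change of 0.13 (SE 0.10, unadjusted p = 0.228 in edgeR's quasi-likelihood test). Apip had a log2 fold change of -0.14, which ran from -0.29 without control 1 to -0.036 without control 3. Mtap, which starts the salvage, had -0.096, which ran from -0.20 without Yap-shRNA 2 to -0.00073 without Yap-shRNA 3.

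For oxidation, acetylation and transport of polyamines, 7 of 12 genes were measured, 4 above and 3 below 0. Sat2, a paralog of Sat1, had 38, 51 and 40 counts in the controls and 25, 35 and 33 counts in the Yap-shRNA libraries, with no overlap and a log2 fold change of -0.50 (SE 0.23, unadjusted p = 0.0604 in edgeR's quasi-likelihood test). Slc47a1, a transporter of organic cations, had -0.16, with -0.059 without control 3, -0.28 without Yap-shRNA 3 and -0.37 without both tendon-high libraries. Paox, which oxidises acetylated polyamines, had 16 to 33 counts per library and an estimate of -0.015.

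The hypusine branch uses spermidine to modify the translation factor eIF5A, and 4 of 4 of its genes were measured, 3 above and 1 below 0. Eif5a had 243 to 301 CPM in controls and 251 to 298 CPM in Yap-shRNA libraries, a log2 fold change of 0.024 (95% interval -0.23 to 0.28). Dhps and Dohh, the enzymes that build hypusine, had 0.11 and 0.017, and Eif5a2 had -0.12.

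All 7 listed regulators of polyamine genes were measured, 2 above and 5 below 0. Myc, an activator of Odc1 transcription, had 84, 62 and 29 counts in the controls and 62, 99 and 54 counts in the Yap-shRNA libraries, a log2 fold change of 0.28 (95% interval -0.51 to 1.06). The groups overlapped for Myc.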

How the data were processed

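Polyadenylated RNA of 6 TA muscles was sequenced from Illumina TruSeq libraries. The authors deposited raw counts per gene, without normalisation. The submitters' processing notes name bcl2fastq 2.20.0.422 and GRCm38. The aligner, counter, annotation and strand setting are not given in the sources used here. The smallest row sum in the table was 60 counts, so low genes had been removed before deposit. All count columns were matched to samples.

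For all 13226 genes, TMM-scaled counts entered the quasi-likelihood test of edgeR 4.0.16 in R 4.3.3 without covariates, with Benjamini-Hochberg adjustment at 0.05. Intervals of 95% used the total degrees of freedom of that test, which add those borrowed from other genes to the residual ones. Single genes and ratios were compared by exact two-sided permutation with scipy 1.17.1. Within a group, the chi-square of any pair of libraries was 7.62 to 21.4 per degree of freedom, and no library was a repeat of another. The script was tested on simulated counts.

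Lengths, positions and transcripts came from GENCODE M21, with a length for 13204 genes, and alignments from Biopython 1.88. The planned comparison of proteins was made on coding sequences instead. Promoter windows were found for 8 members, and Srm and Azin1 had no entry.

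The 10 genes, the pathway and marker lists and the tests were chosen with earlier results of these data known. Named genes were the members, Yap1, the 2 genes of smallest p in each pathway list and 12 genes picked for their roles, of which 1 is left out of the text. Alternatives were DESeq2 1.42.0, the likelihood ratio test, limma-voom (limma 3.58.1), a robust fit, other scalings, a minimum of 10 counts, a replicate block, each library left out and other lengths. Leaving out both tendon-high libraries and summing antizymes with their pseudogenes were added after seeing the data.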

Additional observations from a re-analysis of the deposited data

How the results depend on the processing

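No alternative brought a member or a listed pathway gene past an adjusted p of 0.05. The lowest adjusted p over the alternatives was 0.589 for the members and 0.520 for 19 pathway genes set by the rule for named genes. Of 154 estimates for the members under alternatives, 138 kept their direction and 16 turned. Amd1, Amd2, Smox, Sms and Oaz1 never turned. Over the whole table, DESeq2 called 5 genes, the likelihood ratio test 5, the fit without the tendon-high libraries 3, and fits without 1 library 0 to 1 (Mir155hg, without Yap-shRNA 3), against 0 in the quasi-likelihood fit. Yap1 passed in DESeq2 (adjusted p = 5.85e-07) and the likelihood ratio test (2.22e-06). Dropping the filter could not be tried, because the deposited table holds no lower genes. The shallowest members, Amd2, Srm and Sat1, had at most 169 counts in a library, which limits their precision.

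With a replicate block that paired muscles of the same number, no gene was called, and the log2 fold change turned for Azin1 (-0.0035), Azin2 (0.0033) and Paox (0.0064). Deviations of same-numbered muscles correlated at -0.026, 0.22 and -0.21, and 1 of 3 controls correlated best with its own number. DESeq2 turned Azin2 (0.00020), and limma-voom turned Azin1 (-0.0052) and Paox (0.010). Without both tendon-high libraries, a choice made after seeing the data, the turned values were 0.17 for Odc1, -0.0084 for Srm, 0.26 for Sat1, -0.053 for Azin1, 0.31 for Azin2, 0.091 for Paox, 0.24 for Eif5a2, -0.11 for Eif5a and -0.11 for Dohh. The cause was not tested.

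With 1 library left out, log2 fold changes ran from -0.20 to 0.16 for Odc1, -0.16 to 0.15 for Sat1, -0.062 to 0.093 for Oaz2, -0.15 to 0.10 for Azin1, -0.27 to 0.25 for Azin2, -0.22 to 0.25 for Paox, -0.044 to 0.18 for Dhps, -0.38 to 0.15 for Eif5a2, -0.048 to 0.11 for Eif5a, -0.14 to 0.21 for Dohh and -0.039 to 0.60 for Myc. Differences of log2 ratios ran from -0.23 to 0.096 for Odc1/Oaz1, -0.27 to 0.12 for Odc1/Azin1, -0.23 to 0.077 for Azin1/Oaz1, -0.47 to 0.16 for Amd2/Amd1, -0.21 to 0.14 for Smox/Sms, -0.35 to 0.056 for Sat1/Srm and -0.14 to 0.010 for Oaz2/Oaz1. The other 2 ratios, Amd1/Odc1 and Srm/Sms, kept their direction. The longest transcript and the coding length each moved 4 members in the order of levels.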
